A study of Homo sapiens with 5 samples.

Results

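The 3 neg libraries of SW620 give the transcriptome of a colon carcinoma cell line at 1 state of culture. They were chosen by column name, as the columns of the deposited count table named neg with the replicate numbers 1, 2 and 3, and are 3 of the 5 libraries in all. SW620 is an established human line grown from a lymph node metastasis of a colon adenocarcinoma, and is known to carry a mutation in APC. Per the labels all libraries came from cells of the genotype tet-MUC1shRNA, a short hairpin RNA against MUC1 under a tetracycline-inducible promoter, grown in RPMI1640 medium with fetal bovine serum and antibiotics. The labels say that cells received vehicle or doxycycline, but not which of these neg or pos stands for, so the neg cells are not called untreated here. Neither a clone number nor a parental library without the hairpin is named in them. Culture was in triplicate, and the labels do not say whether these were separate cultures, so every SD below (n = 3 throughout) may be technical. The pos libraries were not used.

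The colon is lined by crypts in which Wnt signals hold stem cells at the base, and cells that leave it stop dividing and become absorptive colonocytes, mucus-secreting goblet cells or hormone-secreting enteroendocrine cells. Transcription factors such as CDX2 and HNF4A fix the identity of this epithelium, and the HOX genes record its position along the body axis. Loss of APC leaves beta-catenin active without a Wnt ligand, and most colorectal cancers start in this way.

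Reads counted in genes came to 13174867, 14137678 and 10888704 in neg replicates 1, 2 and 3, and 16853, 17054 and 16832 genes had at least 1 read. No neg library held a read for 7091 of the 25343 genes in the table. Levels are given as TPM, the read count per kb of transcript scaled to a total of 1000000 in each library, so that genes of different length can be compared. A gene was called on at 1 TPM or more in all 3 libraries, off at no more than 3 reads in each, and low otherwise. The off limit equals 0.212 to 0.276 CPM, reads per 1000000 counted. A gene at 0 reads in 1 library could still have a true level up to the limit of that library, counting error only. For 0 reads in all 3 libraries the bound is lower and was not computed. In RNA from a whole culture, few cells at a high level and many at a low level cannot be told apart.

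Of 18961 protein-coding genes with a length, 11731 were on (61.9%), 2021 low and 5209 off (27.5%). The 61.9% is the share to set beside the on counts of the gene lists below, other than that of long non-coding RNAs. Of long non-coding RNA genes 346 of 1744 were on (19.8%). Over all 23518 genes with a length 12417 were on, and their median level was 20.3 TPM, with a 10th percentile of 3.25 and a 90th of 128 TPM. By their mean level 4324 genes of any class lay between 1 and 10 TPM, 6956 between 10 and 100, and 1635 at 100 TPM or more held 73.7% of all TPM. Reads were spread over many genes. The 10 genes with the highest CPM took 4.65% ± 0.346 of reads, the top 100 took 19.9% ± 1.12, and the top 1000 took 51.8% ± 1.06.

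**Figure D1:**
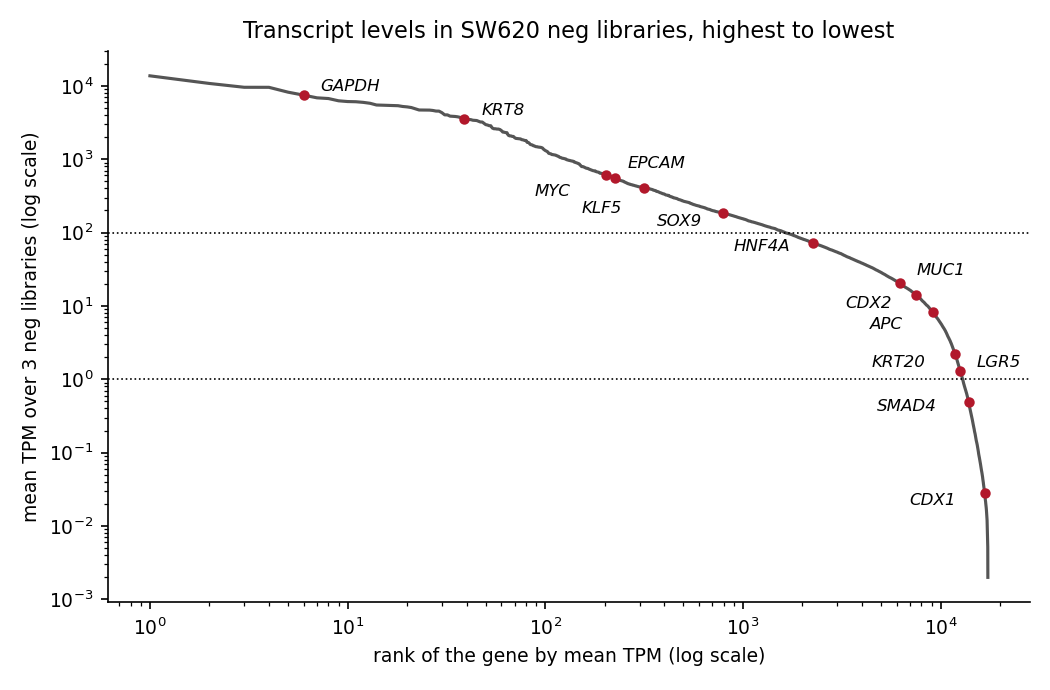
Mean TPM over the 3 neg libraries (y axis, log scale) of every gene with a read, by rank (x axis, log scale), with dotted lines at 1 and 100 TPM and 14 genes marked. KRT8 lies near the top at 3520.0 TPM, CDX2 in the middle at 14.1 TPM and CDX1 at the foot of the curve at 0.0283 TPM.

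Protein synthesis genes led the ranking. The highest level was that of RPS18, a protein of the small ribosomal subunit, at 13713 ± 540.4 TPM, and 17 of the top 25 and 54 of the top 100 genes encode ribosomal proteins. The 62 listed ribosomal protein genes took 9.69%, 8.76% and 8.0% of reads in neg replicates 1, 2 and 3. Other leading genes were the actin-binding TMSB10 (9559 ± 480.4 TPM), the glycolytic enzyme GAPDH (7472 ± 682 TPM), the iron store FTH1 (6873 ± 333 TPM) and the elongation factors EEF1A1 (5171 ± 221 TPM) and EEF2 (4692 ± 224 TPM). GNB2L1, the ribosomal scaffold now called RACK1, had 5459 ± 700.5 TPM and the calcium-binding S100A6 4683 ± 482 TPM. HMGA1, a chromatin protein that is high in embryonic and many tumour cells, stood at rank 31 of all genes with 4088, 4007 and 3982 TPM in neg replicates 1, 2 and 3. The long non-coding LRRC75A-AS1 ranks second at 10789.6 TPM, but its reference transcript is only 443 nt long, which makes its TPM uncertain. Ribosomal protein genes have many processed copies in the genome, so single values among them are uncertain too.

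Transcription factors of the intestinal epithelium were set beside the labelled origin. Of 32 transcription factors of intestinal and colonic cells 21 were on, 4 low and 7 off, with a median of 6.48 TPM. The on share of 65.6% is near the 61.9% of all protein-coding genes, so the count cannot check the origin. The crypt factor KLF5 was highest at 368, 384 and 479 TPM in neg replicates 1, 2 and 3. SOX9, a factor of the crypt base, had 155, 179.8 and 215 TPM, and the endodermal pioneer factor FOXA2 77.5, 87.1 and 94.3. ASCL2, which sets the stem cell program, had 85.02, 95.9 and 67.1 TPM and was lowest in neg replicate 3. HNF4A, a nuclear receptor that drives absorptive differentiation, had 67.6, 72.1 and 77.6 TPM. CDX2, the hindgut homeobox factor used to diagnose colorectal origin, was steady at 13.8, 15.1 and 13.3 TPM, or 308, 345 and 224 reads. KLF5, SOX9, HNF4A and FOXA2 thus exceeded CDX2 in every library.

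The 7 off factors were CDX1, the paralog of CDX2, GATA4 and GATA5, FOXA1, the epithelial factor GRHL2, the secretory fate factor ATOH1, and the xenobiotic receptor NR1I2. CDX1 had 0, 1 and 0 reads and FOXA1 1 read in each library, while GATA4, ATOH1 and NR1I2 had none. FOXA2 and FOXA3 were on at 86.3 and 49.05 TPM beside the off FOXA1, and GATA6 was on at 4.18, 5.497 and 5.89 TPM beside the off GATA4 and GATA5.

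**Figure D2:**
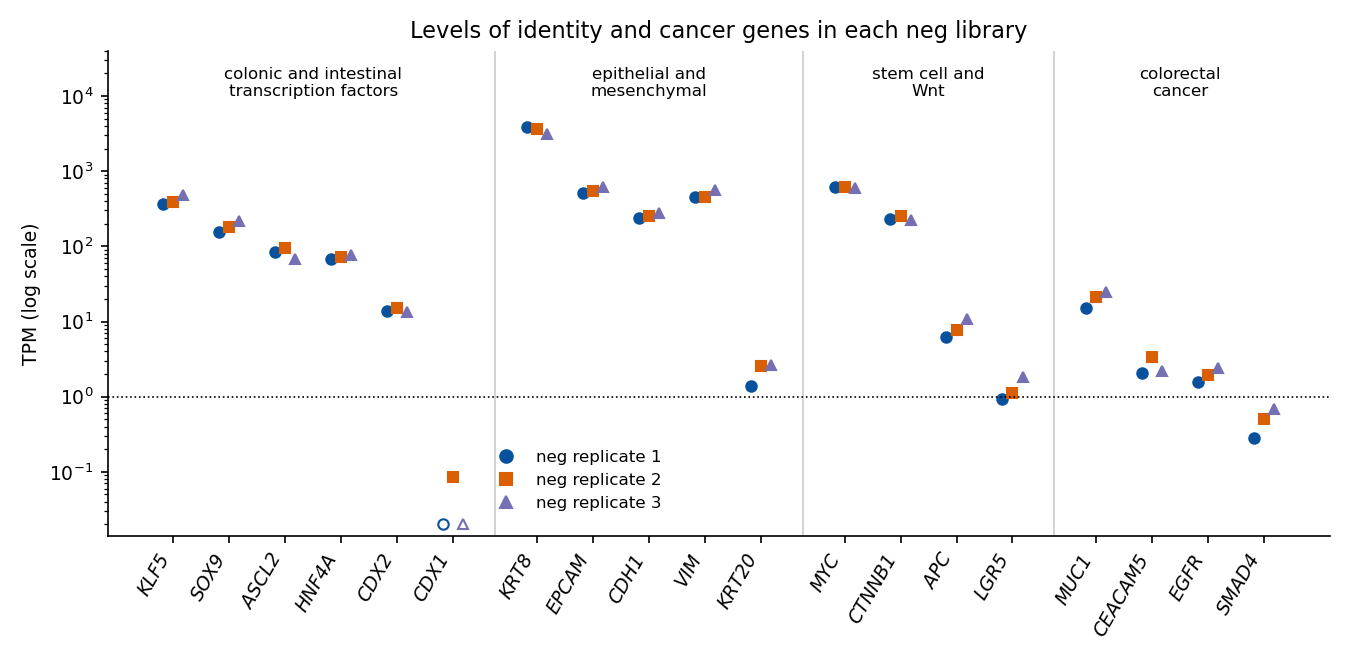
TPM (y axis, log scale) of 19 genes in each of the 3 neg libraries, with 1 symbol a library, a dotted line at 1 TPM and open symbols at the foot for 0 reads. The replicates of a gene lie close together beside the differences between genes, from KRT8 at a mean of 3520.0 TPM to CDX1 with 1 read in all, and LGR5 straddles 1 TPM.

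Transcription factors that mark the foregut, airway or squamous epithelium were on for 8 of 20 members (4 low and 8 off, median 0.256 TPM). SOX2, a factor of the stomach and oesophagus and of pluripotent cells, had 16.3, 17.2 and 18.7 TPM. The cardiac and gastric sphincter factor NKX2-5 had 23.3, 29.5 and 22.7 TPM, the liver and thyroid bud factor HHEX 23.5 and the thyroid and kidney factor PAX8 9.37 TPM. In TPM SOX2 exceeded CDX2 in each of the 3 libraries, and NKX2-5 did as well. This order depends on the reference length of each gene, and reads of SOX2 and NKX2-5 were not set beside those of CDX2. TP63, SOX17, FOXE1, NKX6-1 and NKX6-3 had no read.

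On and off factors both include genes with many and with few CpG before the start site, and 5 examples are shown. They are the 150 bases upstream of the RefSeq start (GRCh38.p14), 5′ to 3′ on the strand of the gene, with each CpG dinucleotide, the site of DNA methylation, in capitals. CDX2 lies on the minus strand of chromosome 13 (chr13:27969316-27969465), HNF4A on the plus strand of chromosome 20 (chr20:44355549-44355698), FOXA1 on the minus strand of chromosome 14 (chr14:37595250-37595399), ATOH1 on the plus strand of chromosome 4 (chr4:93828603-93828752) and NR1I2 on the plus strand of chromosome 3 (chr3:119781951-119782100).
CDX2: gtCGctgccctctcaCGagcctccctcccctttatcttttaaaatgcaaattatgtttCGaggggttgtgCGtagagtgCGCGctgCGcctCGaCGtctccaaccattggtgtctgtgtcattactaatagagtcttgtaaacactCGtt
HNF4A: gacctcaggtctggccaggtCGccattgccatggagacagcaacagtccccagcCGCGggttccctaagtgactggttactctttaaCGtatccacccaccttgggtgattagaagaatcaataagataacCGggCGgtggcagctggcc
FOXA1: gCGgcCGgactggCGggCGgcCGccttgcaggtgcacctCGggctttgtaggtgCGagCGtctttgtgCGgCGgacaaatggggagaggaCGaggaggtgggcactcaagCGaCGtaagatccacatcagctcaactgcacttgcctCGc
ATOH1: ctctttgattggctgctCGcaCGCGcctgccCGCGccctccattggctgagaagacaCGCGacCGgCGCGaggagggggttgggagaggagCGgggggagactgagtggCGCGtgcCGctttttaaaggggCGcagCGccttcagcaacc
NR1I2: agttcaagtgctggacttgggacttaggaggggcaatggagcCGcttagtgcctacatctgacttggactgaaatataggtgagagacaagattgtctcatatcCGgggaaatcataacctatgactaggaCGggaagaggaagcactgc
The on genes CDX2 and HNF4A hold 10 and 6 CpG in these windows, and the off genes FOXA1, ATOH1 and NR1I2 hold 14, 16 and 3. Over 250 upstream bases the ratio of observed to expected CpG was 0.785 for CDX2 and 0.377 for HNF4A, against 0.977, 0.965 and 0.342 for FOXA1, ATOH1 and NR1I2. Taking 0.6 as CpG-rich, 7 of 12 on factors with a promoter in the table were CpG-rich and 2 of 3 off ones. None of the 5 windows holds TATAAA between 40 and 20 bases before the start.

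Across all protein-coding genes the share of CpG-rich promoters differed between on and off genes. Among on genes whose promoter was listed, 82.0% were CpG-rich (7853 of 9581, 95% Wilson interval 81.2 to 82.7), against 29.7% of off genes (1172 of 3945, 28.3 to 31.2) and 64.7% of all 15059. The share was 72.8% for on genes under 10 TPM, 85.0% at 10 to 100, 87.4% at 100 to 1000 and 92.3% at 1000 TPM or more. TATAAA on the strand of the gene, 40 to 20 bases before the start, was held by 1.68% of on genes, 8.39% of off genes and 3.65% of all. Genes at 1000 TPM or more held it in 9.62% of cases (10 of 104). Transcripts grew shorter as the level rose, from a median of 3872.5 nt for on genes under 10 TPM to 1140.0 nt at 1000 TPM or more, and off genes had a median of 2164 nt. TPM is itself divided by this length, and off is set by reads, which short transcripts yield fewer of. Part of the trend can thus come from the measures, and how much was not tested. Within lists the share did not simply follow the class. In the absorptive cell list 1 of 13 off members, 1 of 6 on members and 4 of 24 members of any level were CpG-rich. In the HOXD cluster 4 of 5 off members and 7 of 8 of any level were, and so were ribosomal protein genes of any level in 48 of 49 cases. These intervals treat genes as independent and cover counting error only.

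Few genes of mature absorptive cells were on. Of 34 members 7 were on, 9 low and 18 off (52.9% of the list, beside 27.5% of all protein-coding genes), with a median of 0.08105 TPM. The on members included brush border scaffolds, with the microvillus link protein USH1C at 134, 130.3 and 131 TPM and the actin bundler VIL1 at 50.5, 54.2 and 52.9 TPM. FABP6, a bile acid carrier, had 17.7 TPM. KRT20, a keratin of the colonic surface, was near the limit at 1.37, 2.59 and 2.62 TPM (16, 31 and 23 reads). Transport genes were divided. The sodium exchanger SLC9A3 and the glucose carrier SLC5A1 were on at 6.71 and 8.95 TPM, the carbonic anhydrase CA2 was low at 1.28 TPM, and the chloride exchanger SLC26A3, the water channel AQP8 and the carbonic anhydrases CA1 and CA4 had no read. The fatty acid carrier FABP1 had 0, 1 and 1 reads.

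Secretory genes were on in part. Of 24 goblet, Paneth and tuft cell genes 10 were on, 7 low and 7 off (median 0.526 TPM). TFF3, a peptide of goblet cells, led with 110.5, 99.2 and 74.8 TPM, followed by TFF2 at 17.1, TFF1 at 15.5 and the secretory chaperone AGR2 at 10.5 TPM. MUC2, the gel-forming goblet mucin, had 3.71, 4.55 and 9.55 TPM (101, 127 and 196 reads) and was among the 15 genes with the widest spread between replicates. Its TPM rests on a reference transcript of 4209 nt and is uncertain, since a longer transcript would lower it. A lower mean TPM could also leave it out of those 15. Goblet CLCA1 and the Paneth defensins DEFA5 and DEFA6 had no read. Of 21 enteroendocrine genes 7 were on, 3 low and 11 off, led by the granule proteins SCG2 (34.4 TPM), PCSK1N (31.3) and CHGB (21.1). CHGA had 0, 1 and 2 reads, and the fate factors NEUROG3 and NEUROD1 had none.

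Of 25 intestinal stem cell genes 18 were on, 4 low and 3 off, with a median of 16.5 TPM. Beside SOX9 and ASCL2 these included the surface protein CD24 (162 TPM), the Wnt feedback gene AXIN2 (73.1, 86.3 and 89.5 TPM in neg replicates 1, 2 and 3), the RNA-binding MEX3A (38.9 TPM) and the ubiquitin ligases ZNRF3 (34.9) and RNF43 (24.7). LGR5, the R-spondin receptor that defines crypt base stem cells, was low with 0.945, 1.12 and 1.84 TPM, or 28, 34 and 41 reads. Its range does not overlap that of ASCL2, which lay between 67.1 and 95.9 TPM. OLFM4, the other common marker of these cells, was off at 0.0181 TPM, and HOPX and PTPRO had no read. BMI1, with 1.27, 1.41 and 0.869 TPM, is uncertain because a readthrough transcript, COMMD3-BMI1, shares its exons.

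Epithelial adhesion genes were mostly on. Of 40 adhesion and polarity genes 34 were on, 5 low and 1 off, with a median of 42.9 TPM. EPCAM, the epithelial adhesion molecule, had 506, 539 and 609 TPM, and CDH1, which encodes E-cadherin, had 241, 256 and 282 TPM. The protease inhibitor SPINT2 had 447 TPM, the junction plaque protein JUP 189 and the tight junction gene CLDN4 146 TPM. CDH17, the intestinal cadherin, was low at 0.337, 1.27 and 0.224 TPM, with 31 of its 43 reads in neg replicate 2. The 1 off member was RAB25, with 3, 2 and 1 reads. Among keratins KRT18 (3710.2, 3625 and 3345 TPM) and its partner KRT8 (3818, 3657 and 3085 TPM) overlapped in range. KRT19 followed at 2224, 2065 and 1846 TPM and did not reach either, and KRT80 came next at 239 TPM. KRT18, KRT8 and KRT19, the keratins of simple epithelium, held 36.7%, 36.1% and 21.0% of the TPM of the 18 keratins listed. KRT7, more usual outside the colon, had 56.6 TPM and exceeded KRT20 in every library. Keratins of stratified epithelium were divided, with KRT17, KRT10, KRT16 and KRT15 on at 70.8, 34.04, 15.01 and 10.6 TPM, KRT5, KRT6A, KRT14 and KRT4 low, and KRT1 and KRT13 off.

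Mesenchymal genes were on for 23 of 38 members (60.5%, near the 61.9% of all protein-coding genes), with 3 low and 12 off. S100A4, a calcium-binding protein tied to motility, had 1198 ± 103 TPM. VIM, the mesenchymal intermediate filament, had 455, 458 and 567 TPM, a range that overlaps that of EPCAM. The matrix protein TGFBI had 186 TPM. The transcription factor SNAI1 was steady at 51.8, 51.6 and 52.1 TPM, and ZEB1 (10.1) and SNAI2 (8.53) were on at lower levels. ZEB2, TWIST1 and TWIST2 were off. CDH2, the cadherin that replaces E-cadherin in mesenchymal cells, was off with 0, 1 and 0 reads, as were CDH11, FAP and COL3A1. Integrins and laminins were on for 24 of 42 members (57.1%, also near the share of all protein-coding genes). The pair that anchors epithelium to its basement membrane led, ITGA6 at 293, 348 and 448 TPM and ITGB4 at 293, 311 and 314 TPM. Their laminin ligand chain LAMB3 had 152 TPM. The leukocyte integrins ITGA4, ITGAL and ITGAM were off.

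Markers of other cell types were off in part and on in part. The blood marker PTPRC had no read, nor did the B cell gene MS4A1, the T cell gene CD3E or the red cell gene HBB. Of 23 blood and immune markers 6 were on, 3 low and 14 off, and their summed level ran from 92.1 to 92.4 TPM over the 3 libraries, most of it CD68, a lysosomal protein at 66.8 TPM, followed by the T cell coreceptor CD4 at 8.54 TPM. Fibroblast, endothelial and muscle markers were on for 5 of 20 (summed 24.9 to 32.996 TPM), led by the muscle genes TNNT2 (7.79 TPM) and DES (7.08 TPM) and the collagen COL1A1 (6.55 TPM), with COL3A1, TEK and MYOD1 at 0 and PECAM1 off. Neural and glial markers were on for 6 of 18, led by the tubulin TUBB3 at 116 TPM, the myelin gene MBP at 31.2, the growth cone gene GAP43 at 16.4 and the GABA enzyme GAD1 at 13.7 TPM, and ELAVL4, SNAP25 and STMN2 had no read. Markers of liver, pancreas, kidney, lung, breast, prostate and germ cells were on for 6 of 28, led by the protease TMPRSS2 at 24.1 TPM and including the liver gene SERPINA1 at 13.04 and the prostate gene KLK3 at 8.48 TPM. AFP, INS, UMOD and NANOG had no read. PRSS1, at 15.4 TPM, has near-identical paralogs and is uncertain.

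HOX genes are arranged in 4 clusters and are switched on in order along the body axis, those with high numbers towards the hind end. In SW620 3 clusters were on and HOXD mostly was not. HOXA had 9 of 11 genes on, HOXB 9 of 10, HOXC 8 of 9 and HOXD 2 of 9. HOXB9 was the highest of all 39 at 102, 106 and 105 TPM and took 39.7% ± 1.81 of the TPM of its cluster. HOXB7 and HOXB8 followed at 40.5 and 37.1 TPM with overlapping ranges, HOXB13 was on at 4.48, 4.47 and 4.39 TPM, and HOXB1 had no read. In HOXC, HOXC10 took 48.8% ± 1.25 of the TPM at 61.2, 67.5 and 69.5 TPM, before HOXC13 at 29.4, 30.4 and 31.4 TPM and HOXC6 at 19.5 TPM. HOXA levels were flat by comparison, with HOXA3, HOXA11, HOXA9 and HOXA5 between 13.5 and 14.8 TPM. HOXD8 and HOXD9 were on at 9.11 and 14.3 TPM, while HOXD3, HOXD4, HOXD10, HOXD12 and HOXD13 were off. Neighbouring HOX genes share exons in some transcripts, so values of neighbours are not fully separate.

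**Figure D3:**
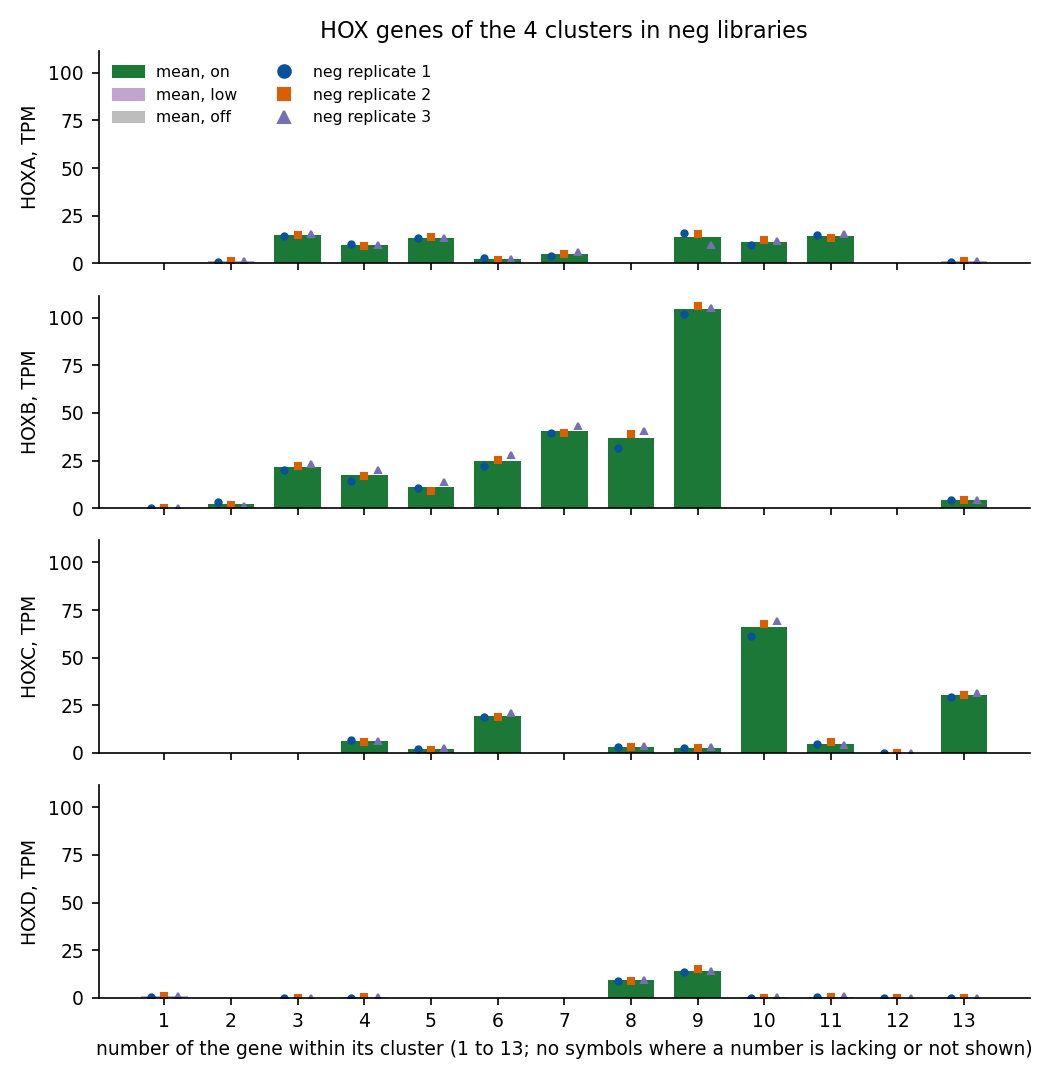
TPM of 38 HOX genes (y axis) by their number in the cluster (x axis), with 1 panel a cluster, bars for the mean of the 3 neg libraries coloured by class and symbols for each library. HOXB9, HOXC10, HOXB7 and HOXB8 stand highest and the HOXD panel is nearly empty outside HOXD8 and HOXD9.

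Wnt pathway genes were grouped as ligands, receptors with intracellular components, and targets. Of 23 ligand genes 7 were on, 6 low and 10 off (median 0.258 TPM), and WNT7B was the highest at 24.6, 19.9 and 22.97 TPM, before WNT11 (8.297) and WNT10B (6.202). WNT3 was on at 2.21 TPM, and RSPO2 and RSPO3, whose proteins amplify Wnt signals at the receptor, had no read. Of 37 receptors and intracellular components 31 were on, 4 low and 2 off (median 15.02 TPM). CTNNB1, which encodes beta-catenin, had 231, 250.4 and 224 TPM, the coreceptor LRP5 170.3 and the ligand acyltransferase PORCN 106 TPM. APC, the scaffold that marks beta-catenin for destruction, had 6.302, 7.68 and 10.9 TPM, well under AXIN1 at 54.8 TPM. Among frizzled receptors FZD10 led with 30.9 TPM, and LGR6 (31.03) and LGR4 (4.56) stood above LGR5.

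Of 28 Wnt target and feedback genes 21 were on, 2 low and 5 off. The transcription factor MYC had 613, 625 and 604 TPM. NOTUM, a secreted enzyme that inactivates Wnt proteins, had 468, 532 and 426 TPM, and the intracellular feedback inhibitors NKD1 and NKD2 had 223, 277 and 326 and a mean of 128 TPM. CCND1, encoding cyclin D1, had 142, 158 and 185 TPM and the target factor SP5 97.8 TPM. The secreted inhibitors SFRP1, SFRP2, SFRP4, WIF1 and DKK4 were off, with SFRP2 and WIF1 at 0 reads, while DKK1 was on at 11.6 TPM.

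Receptor tyrosine kinases, which pass growth factor signals to RAS, were on for 26 of 44 members (8 low and 10 off). This on share of 59.1% is near the 61.9% of all protein-coding genes. EPHA2 led at 185, 181 and 182 TPM, followed by ERBB3 at 119, 146 and 174 TPM, the collagen receptor DDR1 at 96.4 TPM and MET, the HGF receptor, at 75, 90.9 and 103 TPM. Within the EGF receptor family ERBB3 held 88.6% ± 1.68 of the TPM and ERBB2 10.2% ± 1.73. EGFR had 1.58, 1.97 and 2.403 TPM, or 1.20% of the family, and ERBB4 was off. RET, KIT, ALK, FLT3 and KDR were off as well. Among ligands 18 of 37 were on, 7 low and 12 off. FGF19, an intestinal hormone that represses bile acid synthesis, was the highest at 434, 427 and 389 TPM, and its receptor FGFR4 was on at 35.99 TPM. MDK had 315 TPM, PDGFA 119, VEGFA 94.2 and the EGFR ligand TGFA 74.5 TPM, while EREG and AREG had 10.96 and 4.71. HGF, EGF and FGF10 had no read.

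Downstream 46 of 47 RAS-MAPK and PI3K genes were on (median 45.3 TPM), and the leukocyte isoform PIK3CG had no read. The RAS genes HRAS and NRAS had overlapping levels of 48.2 and 45.8 TPM. Genes known to be induced by ERK ranged widely, with DUSP6, a phosphatase of ERK, at 160.0, 185 and 213 TPM, EGR1 at 257, 296 and 363, PHLDA1 at 357, and ETV5 and ETV4 at 149 and 128 TPM. DUSP4 and DUSP5 had 71.01 and 70.4 TPM, and the feedback inhibitors SPRY2, SPRY4, SPRY1 and SPRED1 had 92.9, 40.9, 21.7 and 13.8 TPM.

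Of 36 TGF-beta and BMP genes 28 were on, 3 low and 5 off (median 9.69 TPM). SMAD4, the shared mediator of both branches, was low with 0.282, 0.499 and 0.678 TPM (16, 29 and 29 reads), and SMAD2 (2.14, 2.35 and 2.65 TPM) and SMAD7 (2.24 TPM) were on just above the limit. Of the other SMAD genes SMAD3 had 34.7, SMAD6 18, SMAD1 16.3 and SMAD5 10.7 TPM, and SMAD9 was low at 0.736 TPM. The receptor TGFBR2 had 62.4, 67.5 and 72.2 TPM, the ligand TGFB1 188, the pseudoreceptor BAMBI 185 and the BMP target ID1 141, 133 and 128 TPM. The BMP antagonists NOG and GREM1 were off. Notch and Hedgehog genes were on for 19 of 31 (61.3%, near the 61.9% of all protein-coding genes). HES6 (106 TPM) and the ligand JAG1 (105 TPM) led them, and NOTCH1 and NOTCH2 had 14.2 and 10.1 TPM. The Hedgehog factors GLI1, GLI2 and GLI3 were low, and the ligand IHH of the colonic surface off. Nuclear receptors were on for 27 of 48 (56.25%, a little under that share), with HNF4A, ESRRA (72.1 TPM) and NR2F6 (49.4 TPM) at the head. PPARG had 34.9 and VDR 12.6 TPM, and the sex hormone receptors ESR1 and PGR were off.

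Genes of growth and division were on nearly throughout. All 45 DNA replication and mitosis genes were on (median 24.7 TPM), with the mitotic ubiquitin enzyme UBE2C at 161 TPM, the helicase subunit MCM7 at 137 and PCNA at 102. Of 30 MYC network and ribosome biogenesis genes 29 were on (median 70.4 TPM), led by the nucleolar proteins NPM1 (2538 TPM) and NCL (804 TPM). MYC held 96.6% ± 0.170 of the TPM of the 3 MYC genes, MYCL had 21.4 TPM and MYCN was off. CDKN2A, a cell cycle inhibitor locus that is often silenced in tumours, was the highest of 37 cyclin, kinase and inhibitor genes at 539.6, 551 and 471 TPM, ahead of CDK4 at 191 TPM. CDKN1A, another inhibitor, had 21.5 TPM. Among 44 genes of apoptosis and the DNA damage response 38 were on. GADD45A (363 TPM) and the survival gene BCL2L1 (313, 312 and 299 TPM) led, while BCL2 was low at 0.652, 0.7896 and 1.13 TPM.

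Of 38 DNA repair genes 37 were on. XRCC6 and XRCC5, which bind broken DNA ends, led at 396 and 377 TPM, and the mismatch repair gene MSH6 had 49.2 TPM. The 1 off member was MGMT, which reverses alkylation of guanine and is often silenced in colorectal cancer, with 3, 2 and 0 reads. TERT, the telomerase enzyme, was low at 0.651, 1.08 and 0.6604 TPM. Of 42 telomerase, oncofetal and germ cell genes 14 were on, 5 low and 23 off, led by HMGA1, MAGED2 (313 TPM) and MAGED1 (205 TPM). The oncofetal RNA-binding proteins IGF2BP2, IGF2BP3 and IGF2BP1 were on at 101, 27.1 and 26.9 TPM. CTAG1B, SSX2 and the meiotic SYCP1 and SYCP3 had no read, though CTAG1B and SSX2 have near-identical copies.

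Glycolysis and lactate genes included abundant transcripts, with 31 of 41 on and a median of 68.0 TPM. The glucose transporter SLC2A1 had 1545, 1534 and 1304 TPM and held 92.9% ± 0.596 of the TPM of the 5 glucose transporters listed. Hexokinase transcripts were split between HK1 (58.1% ± 2.51) and HK2 (41.9% ± 2.5), with HK3 off. ENO1 held 93.9% ± 0.512 of the enolases and ALDOA 97.2% ± 0.187 of the aldolases. Lactate dehydrogenase was near evenly divided by TPM, LDHB with 51.9% ± 1.20 and LDHA with 48.0% ± 1.22. LDHB was above LDHA in mean TPM, and their lowest and highest libraries did not overlap. In reads the order was reversed, with 19638, 19726 and 15546 for LDHA against 12379, 13000 and 9296 for LDHB. The TPM order thus rests on the reference lengths of 2241 nt for LDHA and 1303 nt for LDHB. Isoforms of liver and testis, such as PKLR, PGK2 and LDHC, were off. Respiratory chain and ATP synthase genes were on for 39 of 42 (median 186 TPM), and tricarboxylic acid cycle and glutamine genes for 43 of 46. The glutaminase gene GLS2 had 47.2 TPM, and mitochondrial PCK2 held 98.0% ± 0.338 of its family.

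All 37 genes of serine, folate, nucleotide and polyamine enzymes were on, at a median of 135 TPM. The polyamine enzyme SAT1 led at 2124 TPM. SHMT2, the mitochondrial serine hydroxymethyltransferase, had 1051, 977 and 862 TPM and held 98.7% ± 0.0954 of the TPM of SHMT1 and SHMT2. Asparagine synthetase ASNS had 599.9, 668 and 661 TPM and the serine pathway genes PSAT1 and PHGDH 499.8 and 222 TPM. TYMS, the target of fluorouracil, had 5.52 TPM, a value that is uncertain because ENOSF1 overlaps it on the other strand. Antioxidant genes were on for 38 of 44, with GSTP1 at 1056, GPX2, an intestinal glutathione peroxidase, at 439, 425 and 434 and NQO1 at 415 TPM. Lipid and cholesterol synthesis genes were on for 33 of 34, led by the fatty acid desaturase SCD at 198, 223 and 242 TPM.

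Drug handling genes were on for 15 of 33 (8 low, 10 off). The nucleoside enzyme UPP1 had 179 TPM and CES2, an esterase that activates irinotecan, 113, 126 and 128 TPM. The efflux pumps ABCC4, ABCC1 and ABCB1 had 67.5, 36.8 and 25.5 TPM, while ABCG2 was low at 0.655 TPM. DPYD, which degrades fluorouracil, was low at 0.207 TPM. CYP3A4, UGT2B7 and NAT2 had no read. UGT1A6 and CYP2D6 were also at 0, which is uncertain since the former shares exons with its neighbours and the latter has close paralogs.

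Genes of protein folding in the endoplasmic reticulum (ER) and of its stress response were on for 32 of 33, with a median of 237 TPM. The chaperones HSP90B1, CALR and HSPA5 had 1916, 1899.6 and 1343 TPM, with HSPA5 at 1342, 1380.2 and 1306 in neg replicates 1, 2 and 3. The stress transcription factor ATF4 had 1659.8, 1546 and 1517 TPM, its target TRIB3 643, 594 and 465 TPM and DDIT3 248, 238 and 226 TPM. Heat shock and proteostasis genes were on for 32 of 34, led by HSPA8 (1924 TPM). The stress-inducible HSPA1A, HSPA1B and HSPA6 were at 13.2, 24.02 and 6.39 TPM. Of 27 hypoxia response genes 25 were on, with SLC2A1, DDIT4 (1137, 1047 and 943 TPM), P4HA1 (174 TPM) and the carbonic anhydrase CA9 (141, 129 and 119.6 TPM) at the head. BNIP3 was low at 0.948 TPM and ANGPTL4 on at 2.22 TPM. The oxygen sensor EGLN2 had 1, 0 and 0 reads, and a readthrough gene, RAB4B-EGLN2, shares its exons, so its value is uncertain.

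MHC class I and presentation genes were on for 29 of 31, with B2M, the shared light chain, at 543, 600.2 and 683 TPM. HLA-C had 545, 535 and 447 TPM and HLA-B 171, 161 and 133 TPM, though these paralogs are close and reads of variable genes can be lost to the reference. Of 12 MHC class II genes 4 were on, 1 low and 7 off. The master regulator CIITA had 0, 1 and 0 reads and HLA-DRA none, yet HLA-DQB1 had 27.6, 29.2 and 30.9 TPM, while its partner HLA-DQA1 was off. Interferon and nucleic acid sensing genes were on for 31 of 37, led by ISG15 at 146 TPM. MB21D1, the DNA sensor cGAS, had 1, 0 and 0 reads, while TMEM173, the adaptor STING below it, was on at 7.68 TPM. Cytokine, chemokine and NF-kB genes were on for 24 of 41 (58.5%, near the 61.9% of all protein-coding genes). IL23A had 121, 126 and 114 TPM, and CXCL8, a neutrophil attractant, 97.3, 112 and 121 TPM. IL6, CCL2, CXCL10 and PTGS2, which encodes COX-2, had no read, and the immune checkpoint ligand CD274 was low at 0.563 TPM.

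MUC1, the gene the hairpin is directed at, had 176, 252 and 218 reads in neg replicates 1, 2 and 3, or 15.04, 21.001 and 24.7 TPM. This put it at the 73.6th percentile of genes with a length, and its CV, the SD divided by the mean of TMM-scaled CPM, was 18.4%. MUC13 had a mean of 27.7 TPM, and MUC3A and MUC20 were on at 1.74 and 1.97 TPM. MUC4, MUC5B, MUC6, MUC12 and MUC16 were low, and MUC15, MUC17 and MUC21 off. Of 37 mucins and surface glycoproteins with a row 23 were on (62.2%, near the 61.9% of all protein-coding genes), 9 low and 5 off. The tetraspanin CD63 was the highest at 982 TPM. CEACAM5, which encodes the clinical tumour marker CEA, had 2.08, 3.36 and 2.17 TPM, or 47, 78 and 37 reads, and the colon antigens GPA33 and GUCY2C were low at 0.519 and 0.216 TPM.

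Proteases and inhibitors were on for 25 of 35, with TIMP1 (642 TPM), the cathepsin CTSB (471 TPM) and the kallikrein KLK6 (179 TPM) among the highest. The matrix metalloproteinase MMP7, a Wnt target in adenomas, was low at 0.7597 TPM, and MMP2, MMP3, MMP9 and MMP10 were off. Polycomb, DNA methylation and SWI/SNF genes were on for 32 of 34, with EZH2, the Polycomb methyltransferase, at 102 TPM, the maintenance DNA methyltransferase DNMT1 at 49.8 and the SWI/SNF ATPase SMARCA4 at 116 TPM. In a list of much-studied long non-coding RNAs, 24 of the 29 with a length were on, led within the list by the snoRNA hosts GAS5 (1891 TPM) and SNHG1 (1118 TPM). The colorectal transcript CRNDE had 33.6 TPM and PVT1, the neighbour of MYC, 10.1 TPM. HOTTIP and FENDRR were off.

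**Figure D4:**
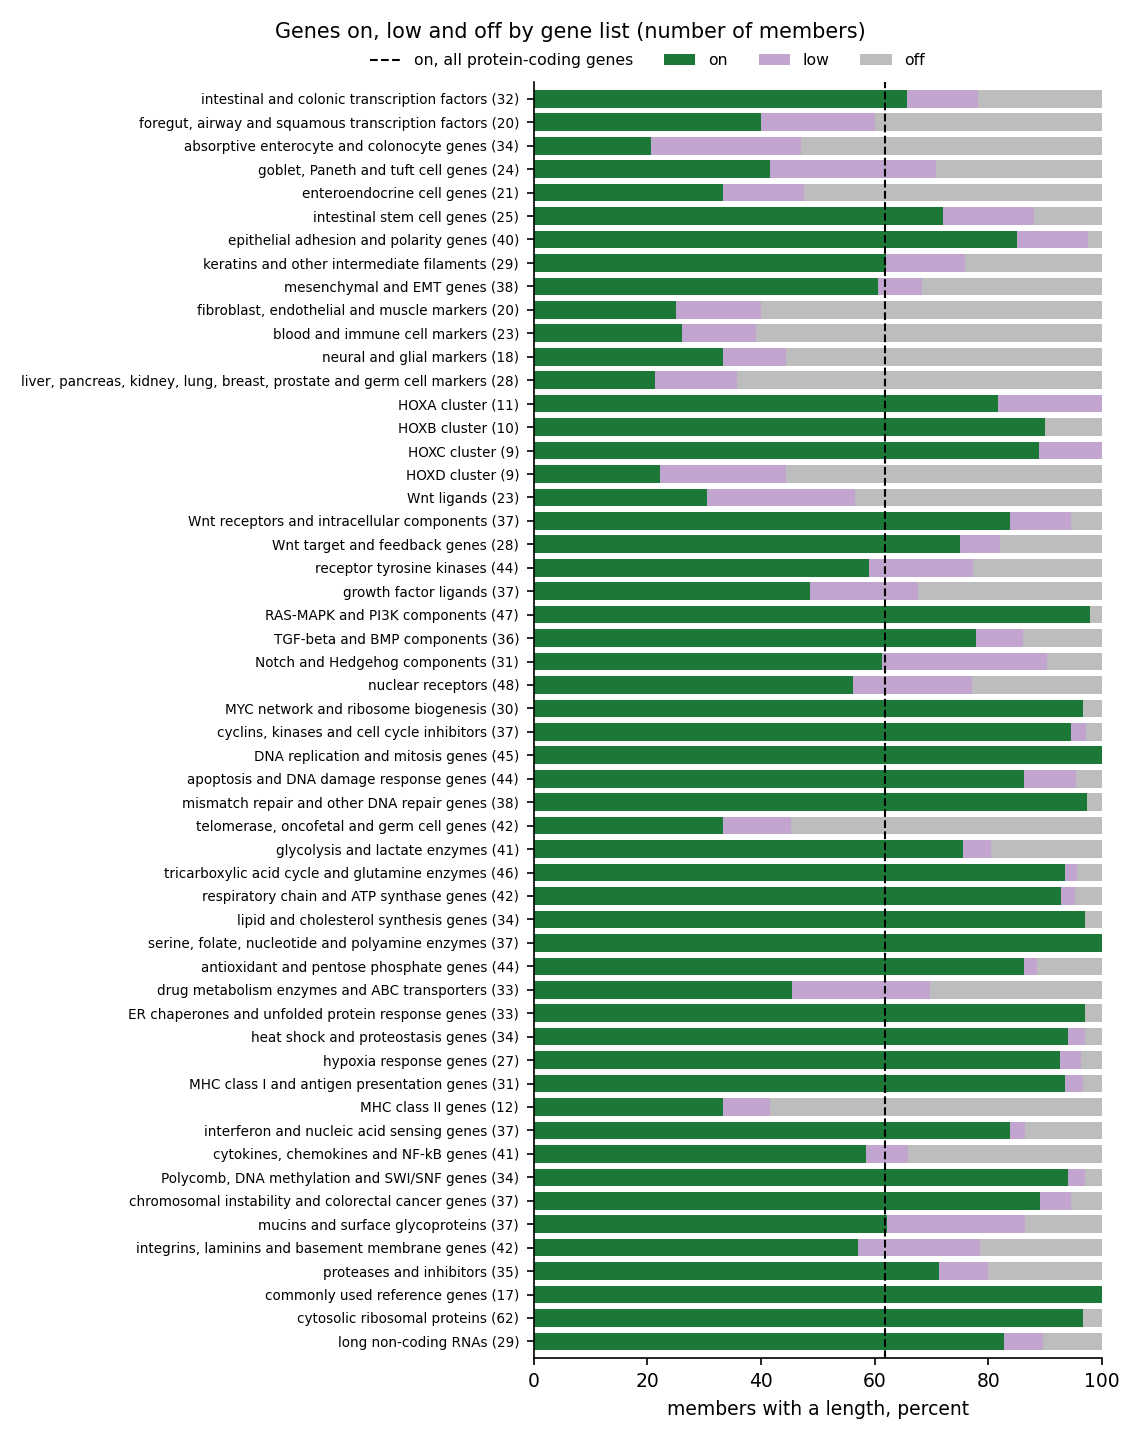
Percent of the members of each of 54 gene lists (y axis, with the number of members that have a length) that were on, low and off in the neg libraries (x axis). The dashed line marks the 61.9% of all protein-coding genes that were on. Replication, serine and folate, and reference genes are on throughout, and absorptive cell, HOXD, other-organ and fibroblast lists have the shortest green bars.

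By chromosome, the share of protein-coding genes on ran from 46.5% on X and 53% on chromosome 4 to 72.8% on chromosome 16. The median TPM of on genes was lowest on chromosome 18 at 13.5 (145 on genes) and chromosome 4 at 13.9, and highest on chromosome 20 at 33.9 (330 on genes) and chromosome 11 at 32.3. DNA copy number was not measured, and its part in these medians was not tested.

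Replicates agreed more closely between neg 1 and 2 than with neg 3. Over 13036 genes with at least 10 reads in every library the median CV was 10.8%, beside 5.12% from Poisson counting alone, and the common biological coefficient of variation of edgeR was 0.121. It was 0.0729 without neg replicate 3, 0.168 without neg replicate 2 and 0.104 without neg replicate 1. More than 2-fold differences were found for 8 genes between neg 1 and 2, 27 between neg 2 and 3, and 117 between neg 1 and 3. Pearson correlations of log2 CPM across genes, which are not independent, were 0.995, 0.992 and 0.984 in the same order, and all 3 pairs differed beyond counting error (chi-square per degree of freedom 6.5, 9.72 and 24.3). Neg replicate 3 was the farthest from the mean for 5701 of 11043 genes with 50 reads or more, neg replicate 1 for 4026 and neg replicate 2 for 1316.

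The deviations moved with transcript length. In the quintile of genes with the shortest transcripts (median 1234 nt) the median log2 ratio to the mean CPM of the 3 libraries was 0.12 in neg replicate 1 and -0.14 in neg replicate 3. In the quintile with the longest (median 7538 nt) it was -0.15 and 0.14, while neg replicate 2 stayed between -0.02 and 0.01 in every quintile. Ribosomal protein genes had medians of 0.17, -0.01 and -0.19 in neg replicates 1, 2 and 3. The cause was not tested.

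**Figure D5:**
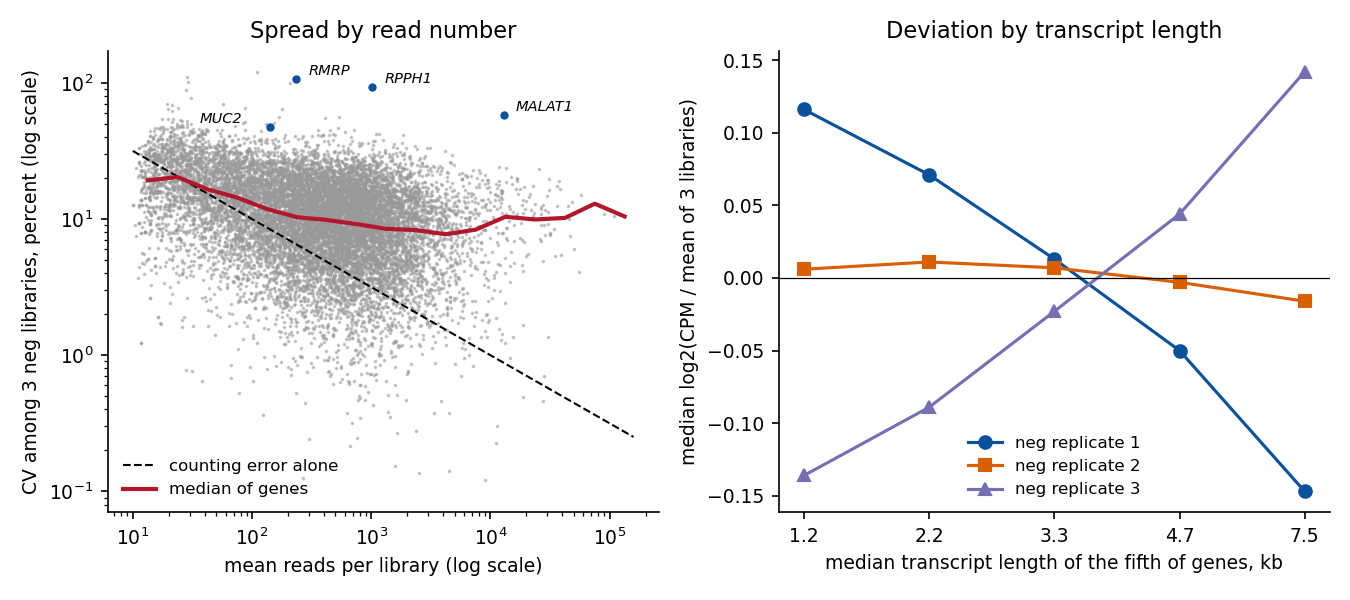
Left, CV among the 3 neg libraries (y axis, percent, log scale) by mean reads (x axis, log scale) for each gene, with the median (red) and the counting error (dashed). The median lies well above counting error at high counts, at 8.35% in the class that starts at 1000 reads beside 2.44% from counting. Right, median log2 ratio of each library to the mean (y axis) by the median transcript length of quintiles of genes (x axis), with neg replicates 1 and 3 running in opposite directions.

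Among genes with at least 5 TPM on average and 50 reads in every library, the 4 of widest spread were RNAs without a usual poly(A) tail. The RNase MRP RNA RMRP had a CV of 106% with 74, 137 and 486 reads, the spliceosomal RNU11 99.8% with 82, 123 and 420, and the RNase P RNA RPPH1 93.7% with 204, 956 and 1911. The nuclear MALAT1 followed at 57.8% with 7076, 12459 and 19078 reads. Each was highest in neg replicate 3. Summed over 30 genes of small structured RNAs the level was 83.7, 148 and 362 CPM without TMM scaling. By TMM-scaled CPM neg replicate 3 was the highest for 20 of the 30. RMRP, RNU11 and RPPH1 held much of the sum. The other 27, a choice made after seeing the data, summed to 56.4, 61.8 and 104 CPM, again without TMM scaling. Their median log2 ratios to the mean, from TMM-scaled CPM, were -0.15, -0.12 and 0.23. Among the 15 widest were also the protein-coding RPL39 (55.8%, a ribosomal protein gene with a transcript of 390 nt), ASPM (55.7%, a mitotic spindle gene with a transcript of 10863 nt), ZNF92 (50.5%) and MUC2 (47.1%), again highest in neg replicate 3. RPL39, with 109, 219 and 405 TPM, went against the direction of short transcripts and of the other ribosomal protein genes as a group. At the other end CTNNA1, CLNS1A and DAZAP2 had CVs of 0.122%, 0.137% and 0.142%, below the 1.06%, 1.98% and 1.49% of counting alone. Such a value is what the closest of many triplets gives and is no sign of special stability.

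A few zeros are uncertain. MIF, an abundant cytokine gene in most cell lines, had no read in any neg library, and RPL21, a ribosomal protein gene, had none either. RPS10 had 178 TPM, the lowest of the 60 ribosomal protein genes on. RPL21 has many near-identical pseudogenes and RPS10 shares exons with the readthrough gene RPS10-NUDT3, which had no read itself. The sources used here do not give how reads matching several genes were counted, and the part of this in these zeros was not tested. MUC5AC, CYTOR and CCAT1, members of the mucin and long non-coding RNA lists, were not analysed here.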

How the data were processed

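RNA from cultured SW620 cells was extracted with Trizol and sequenced from TruSeq Stranded mRNA libraries, per the labels' protocols. The deposited values are raw read counts per gene made by the authors, in 1 table. The labels' protocols name the genome build GRCh38, while the submitters' processing notes name hg19 and the tools CASAVA 1.8.2, STAR 2.5.2b and DESeq2 1.24.0. Neither the program that counted reads nor its use of strand is given in the sources used here, so antisense and overlapping genes are uncertain.

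The 92 ERCC spike-in rows, all at 0, were left out. Of 25343 gene rows 21997 matched a gene by symbol and 1521 by a RefSeq synonym, which gave 92.8% of rows a length, that of the canonical transcript of GENCODE 44. Rows without a length held 0.359% to 0.383% of reads and have no TPM. TPM was computed on the counts as deposited, and CPM was scaled by TMM in edgeR 4.0.16 (R 4.3.3). The off limit and the sums over small structured RNAs are in CPM without this scaling. CV was the SD over the mean CPM of the 3 libraries, over genes with at least 10 reads in each. The method for the biological coefficient of variation was tested on simulated data. Upstream bases came from the RefSeq promoter table of GRCh38.p14, which held 16639 of the genes. Tables were handled with Python 3.11.15, pandas 2.3.3 and numpy 2.4.6, and figures drawn with matplotlib 3.10.9.

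No group was compared with another, so no p-value is given. Depth was 10888704 to 14137678 counted reads a library, and intervals cover counting error only. The members and the 54 gene lists were chosen with earlier results of these data known. Genes were named by rule: the 25 highest by TPM, the 5 highest and up to 5 off members of each list, the 15 of largest and 10 of smallest CV, 26 genes whatever their value, and the order within families. Other genes named were chosen after their values were seen, as were HNF4A and the motif windows among the printed sequences. Settings tried were other limits for on and off, CPM in place of TPM, other scalings and read minimums, leaving out each replicate, and promoters only near the GENCODE start. A few genes that stay in the counts of their lists are not reported here by name.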

Additional observations from a re-analysis of the deposited data

How the results depend on the processing

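No paired analysis was possible because 1 group was described and nothing was compared with it. The count of on genes (12417) ranged from 11596 at a limit of 2 TPM to 13159 when 1 library sufficed, and the off count (8671) from 6178 at 0 reads to 9989 at 10 reads. Both stayed within 1.5 times under every setting. The top 100 genes by CPM held 19.9% of reads, and the top 100 by TPM held 35.5% of TPM, a setting that changes both the ranking and the quantity shared. The median CV (10.8%) lay between 6.55% without replicate 3 and 12.7% without replicate 2, and the common biological coefficient of variation (0.121) between 0.0729 and 0.168. With only promoters within 100 nt of the GENCODE start, an alternative chosen after seeing the data, 87.0% of on genes were CpG-rich in place of 82.0%, and 30.2% of off genes. At 0.5 TPM 11 in place of 7 absorptive cell genes were on, and at 2 TPM 6 in place of 10 goblet, Paneth and tuft cell genes. The other list counts stayed within 1.5 times at both limits. Depth limits the off calls: 3 reads were 0.276 CPM in the shallowest library, and levels below that were called off whether or not a read was seen.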
